A study of Mus musculus with 12 samples.

Results

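The transcripts of 9 laminin chain genes, *Lama1* to *Lama5*, *Lamb1* to *Lamb3* and *Lamc1*, were followed in adrenals of mice with stabilized β-catenin. They are 9 of the 39017 genes in the deposited table and were found by symbol, and all 9 had enough counts to be tested. RNA was sequenced from whole adrenals trimmed of fat, of female mice aged 10 to 11 weeks, 6 controls (Ctrl) and 6 βCat-GOF mice, on a mixed sv129-C57Bl/6 background. By the genotype labels both groups carried *ASCre/+*, although the titles call the controls wild type. In *ASCre/+* the *Cyp11b2* (AS) locus drives Cre and is active in zona glomerulosa (zG) cells. The βCat-GOF mice were bigenic, with *Ctnnb1fl(ex3)/+* as well, an allele from which Cre removes the exon that marks β-catenin for degradation. The recombination is thus limited to zG cells and their descendants, whereas the RNA came from the whole gland. In such bulk RNA, fewer cells of a type and less RNA per cell cannot be told apart.

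Laminins are the network-forming proteins of basement membranes (BM), and each is a trimer of an α, a β and a γ chain. The α chain carries the domains that integrins, dystroglycan and the Lutheran glycoprotein bind, so the α chain sets which receptors a laminin engages. In the adult mouse, α4 and α5 are the chains of vessel walls, α2 is the chain of muscle and peripheral nerve, α1 is largely a chain of early embryos and of some epithelia, and α3 is the chain of the BM under the epidermis. The glomeruli of the zG are wrapped in a BM that the study marked by staining laminin β1, the product of *Lamb1*.

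The libraries held between 13484675 and 25625494 counts, and the totals of the 2 groups overlapped. The *Ctnnb1* count per gene, 21620 ± 858 normalized counts in Ctrl and 21400 ± 1151 in βCat-GOF (SD, n = 6 each), does not check the labels, since only 1 exon of 1 allele is lost in part of the cells. All 6 control labels begin with 1 number, 5 of the 6 βCat-GOF labels with another and the label of βCat-GOF 5 with yet another. A difference between families or batches that follows these numbers cannot be told apart from genotype. The labels of βCat-GOF 1 and βCat-GOF 2, and of 2 pairs of controls, share a stem. The paired libraries differed by more than counting noise, so they are not copies of 1 library. The labels do not say whether they come from separate mice, while the study's figure legend gives 6 female mice per group. The libraries were counted as separate mice, which are numbered in the order of deposit. Results without 1 library of each pair are given for *Lama3*, for *Lama5* and for the α chain shares that passed the test.

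The main change was in the makeup of the α chain transcripts. In Ctrl adrenals *Lama4* made up 53.9% of these transcripts on average, and in βCat-GOF adrenals its share fell while those of *Lama3*, *Lama5* and *Lama1* rose, with no overlap between the groups. In edgeR, the main test, only *Lama3* of the single genes rose past every cut-off, 2.78-fold. DESeq2, run as an alternative, also called *Lama5*, at a log2 fold change of 0.67 and a DESeq2 adjusted p of 0.0125. *Lamb1* and *Lamc1*, the β and γ chains that go with most α chains, had log2 fold changes of 0.33 and 0.26 that did not pass the test.

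The quasi-likelihood test of edgeR was run across all 14953 genes with enough counts, and adjusted p values are those of Benjamini and Hochberg over these genes. A gene was called when its fold exceeded 1.4, its adjusted p was under 0.05 and its base mean (the mean normalized count over the 12 mice) exceeded 100. By this rule 1 of the 9 chains was called higher, against a background of 1.48% of all genes tested, and 0 were called lower, against 0.869%. At an adjusted p under 0.05 alone the counts were again 1 higher and 0 lower, where the background was 2.16% higher and 1.52% lower. DESeq2 called 2 chains higher, *Lama3* and *Lama5*, and 0 lower, with backgrounds of 2.14% and 1.66%. An unadjusted p under 0.05 was reached by 5 chains that were higher and 1 that was lower, where 9.73% and 10.7% of all genes were. The median log2 fold change of the 9 chains was 0.27, and that of all genes tested was 0.00011. In 2 chains, *Lama3* and *Lamb1*, all βCat-GOF mice lay above all Ctrl mice, as in 1.61% of genes tested, and in 0 chains below, as in 1.16%.

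**Figure D1:**
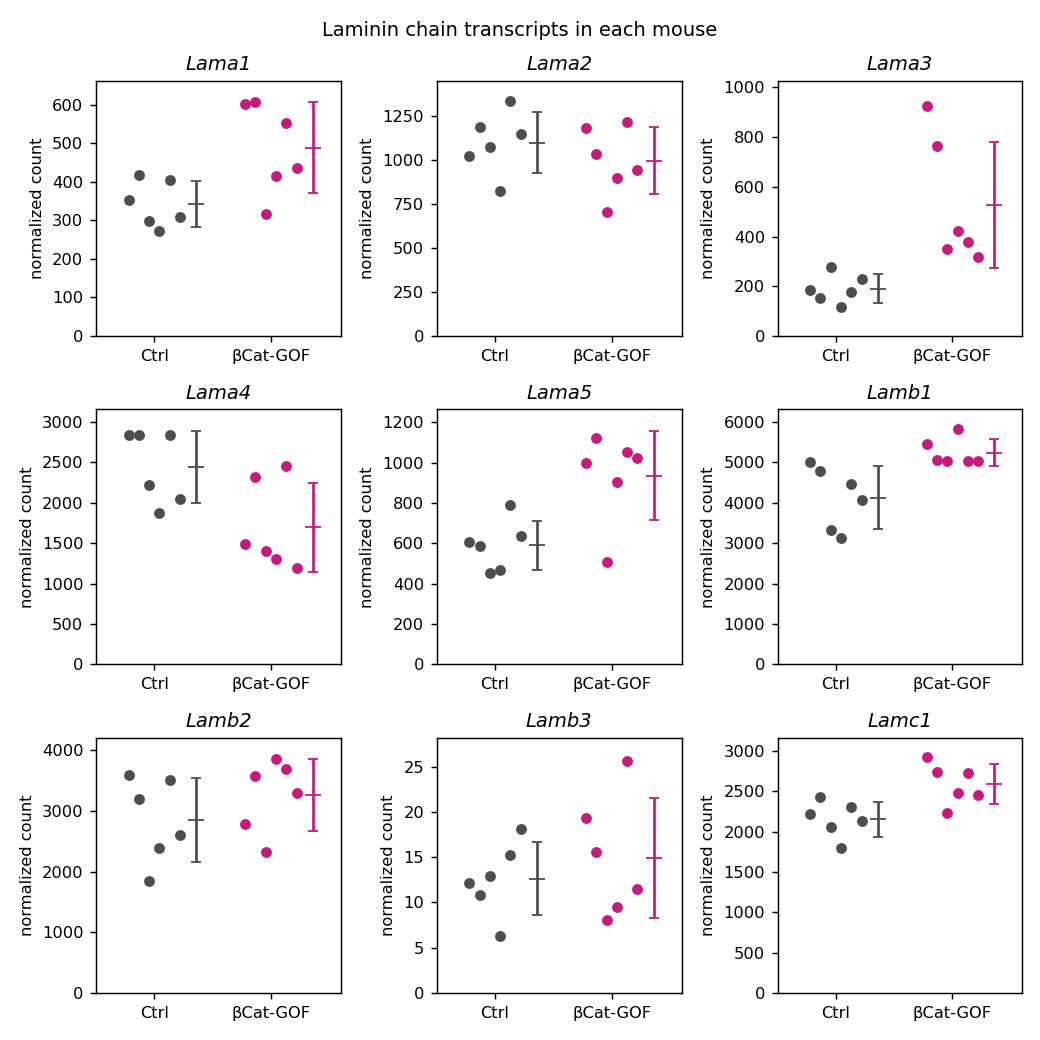
Normalized counts of each laminin chain gene (y axis, linear, from 0) in the 6 Ctrl and 6 βCat-GOF mice. Points are mice in the order of their numbers, and bars are mean ± SD. The groups do not overlap for *Lama3* and *Lamb1*, and βCat-GOF 3 lies among the controls for *Lama5* and *Lama1*.

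*Lama3* encodes the α3 chain, which is best known from the BM of the epidermis, where it is joined to β3. The gene lies on the plus strand at chr18:12333819-12583013 (mm10). The normalized counts in Ctrl were 186, 153, 279, 116, 178 and 229 in mice 1 to 6, and those in βCat-GOF were 927, 762, 349, 424, 380 and 319. Every βCat-GOF mouse was above every control, and βCat-GOF 1 and βCat-GOF 2, which share a stem of the label, were the highest. The means were 190 ± 57.5 and 527 ± 254 (SD, n = 6 each), with a log2 fold change of 1.47 (SE 0.295, edgeR adjusted p = 0.0144). Without these 2 mice the log2 fold change was 0.94 and the adjusted p was 0.0165, and without 1 library of each pair that shares a stem they were 1.404 and 0.0204. With each mouse left out in turn, *Lama3* was called in 12 of 12 fits, at log2 fold changes of 1.23 to 1.62. A test against the fold of 1.4 itself (glmTreat) gave an adjusted p of 0.0986. Of its exons 1.83% overlap a gene on the other strand, and whether the counting used strand is not given in the sources used here. A count per gene does not separate the short and the long α3 transcripts.

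*Lamb3*, which encodes the β3 chain, was near the limit of detection. Its normalized counts were between 6.3 and 18.2 in Ctrl, with a median of 12.6, and between 8.05 and 25.6 in βCat-GOF, with a median of 13.5 (log2 fold change 0.27, SE 0.326, edgeR adjusted p = 0.696). In βCat-GOF 1 and βCat-GOF 2, the mice with the highest *Lama3*, it was at 19.3 and 15.6. Per kb of exon, the mean of *Lama3* in βCat-GOF was 49 normalized counts, whereas that of *Lamb3* was 2.26. Of 7 markers of surface epithelium, *Epcam*, *Cdh1*, *Krt5*, *Krt14*, *Krt8*, *Krt18* and *Krt19*, only *Krt18* had enough counts to be tested (log2 fold change -0.07, edgeR adjusted p = 0.955), and it reached 36.4 normalized counts. *Epcam*, *Cdh1*, *Krt5* and *Krt14* had at most 7 counts in any mouse, while *Krt19* reached 34.7 normalized counts in 1 control. The 7 genes together made up 0.994 to 4.29 CPM (counts scaled to a library of equal total) in Ctrl and 0.634 to 3.19 in βCat-GOF.

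*Lama5* encodes the α5 chain of laminin-511 and laminin-521, the laminins of mature epithelial and vascular BM. It lies on the minus strand at chr2:180176373-180225859. The normalized counts in Ctrl were 605, 589, 453, 467, 789 and 636, and in βCat-GOF 1000, 1121, 507, 906, 1055 and 1023. In 5 of 6 βCat-GOF mice *Lama5* was above every control, while βCat-GOF 3 was among the lower controls. The log2 fold change was 0.66 (SE 0.183), with an adjusted p of 0.0655 in edgeR and 0.0125 in DESeq2. Without βCat-GOF 3 the edgeR values were 0.78 and 0.00695, and without Ctrl 5, the highest control, 0.76 and 0.0475. Without 1 library of each pair that shares a stem they were 0.56 and 0.167, and without βCat-GOF 1 and 2 they were 0.55 and 0.0961. DESeq2 called *Lama5* in 12 of 12 fits that left out 1 mouse each, and edgeR in 2. The adjusted p of these 12 edgeR fits ran from 0.00695 to 0.136.

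*Lama1*, the α1 chain of laminin-111, lies on the plus strand at chr17:67697259-67822647. Its normalized counts ranged from 272 to 418 in Ctrl, with a median of 331, and from 317 to 607 in βCat-GOF, with a median of 494. In 4 of 6 βCat-GOF mice it was above every control, and βCat-GOF 3 was again the lowest of its group. The log2 fold change of 0.50 (SE 0.172) did not pass the test in edgeR (adjusted p = 0.126) or in DESeq2 (adjusted p = 0.0533). Without βCat-GOF 3 the edgeR adjusted p was 0.0499, at a log2 fold change of 0.60, and DESeq2 called *Lama1* in 4 of 12 fits that left out 1 mouse.

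*Lama4*, the α4 chain of laminin-411 in vessel walls, lies on the plus strand at chr10:38965515-39110188. The normalized counts in Ctrl were 2833, 2836, 2215, 1869, 2843 and 2045, and in βCat-GOF 1496, 2322, 1401, 1302, 2458 and 1193. In 4 of 6 βCat-GOF mice *Lama4* was below every control, and βCat-GOF 2 and 5 were within the control range. The log2 fold change was -0.53 (SE 0.190), with an adjusted p of 0.141 in edgeR and 0.0848 in DESeq2. With 1 mouse left out, DESeq2 called it lower in 2 of 12 fits and edgeR in 0. Of 8 endothelial markers, 7 had log2 fold changes below 0, as did 7472 of the 14953 genes tested, and 0 were called. The median of the 8 markers was -0.12, and their summed level was 747 to 974 CPM in Ctrl and 655 to 887 in βCat-GOF. Of 7 markers of pericytes and smooth muscle, 5 were lower and 0 were called in edgeR, with a median of -0.25. Of all genes tested 1.48% were called higher and 0.869% lower. DESeq2 called *Acta2* higher (log2 fold change 0.49, DESeq2 adjusted p = 0.0412), against 2.14% of genes. It called *Myh11*, picked after its values were seen, lower (-0.51, DESeq2 adjusted p = 0.0419), against 1.66%. The part of vessel content in the *Lama4* level was not tested.

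*Lama2*, the α2 chain of laminin-211, lies on the minus strand at chr10:26980036-27619758. It ranged from 825 to 1338 normalized counts in Ctrl and from 706 to 1220 in βCat-GOF, so that the groups overlapped nearly in full (log2 fold change -0.15, SE 0.142, edgeR adjusted p = 0.607). Of its exons 3.86% overlap a gene on the other strand.

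*Lamb1* encodes the β1 chain, the BM stain of the study, and lies on the plus strand at chr12:31265234-31329644. The normalized counts in Ctrl were 5013, 4781, 3335, 3127, 4470 and 4073, and in βCat-GOF 5460, 5056, 5027, 5820, 5030 and 5046. Each βCat-GOF mouse was above each control, but the lowest βCat-GOF mouse was close to the highest control, at 5027 against 5013. The SD was 769 in Ctrl and 330 in βCat-GOF. The log2 fold change was 0.33 (SE 0.117), a 1.26-fold difference, with an adjusted p of 0.136 in edgeR and 0.0671 in DESeq2, and it was called in 0 of the 12 fits without 1 mouse.

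*Lamb2* encodes the β2 chain of laminins at the kidney filter, the synapse and vessels, and lies on the plus strand at chr9:108479736-108490530. It ranged from 1851 to 3590 normalized counts in Ctrl and from 2325 to 3862 in βCat-GOF (log2 fold change 0.18, SE 0.167, edgeR adjusted p = 0.583). The groups overlapped over most of their range.

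*Lamc1* encodes γ1, the γ chain of most laminins, and lies on the minus strand at chr1:153218922-153332786. Its normalized counts ranged from 1799 to 2430 in Ctrl, with a median of 2177, and from 2237 to 2928 in βCat-GOF, with a median of 2606. In 5 of 6 βCat-GOF mice it was above every control, and the 1.20-fold difference did not pass the test (log2 fold change 0.26, SE 0.0927, adjusted p = 0.142 in edgeR and 0.0659 in DESeq2). *Lamc3*, the γ3 chain, was at 656 to 974 normalized counts in Ctrl and 612 to 857 in βCat-GOF (log2 fold change -0.15, SE 0.114, edgeR adjusted p = 0.506).

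**Figure D2:**
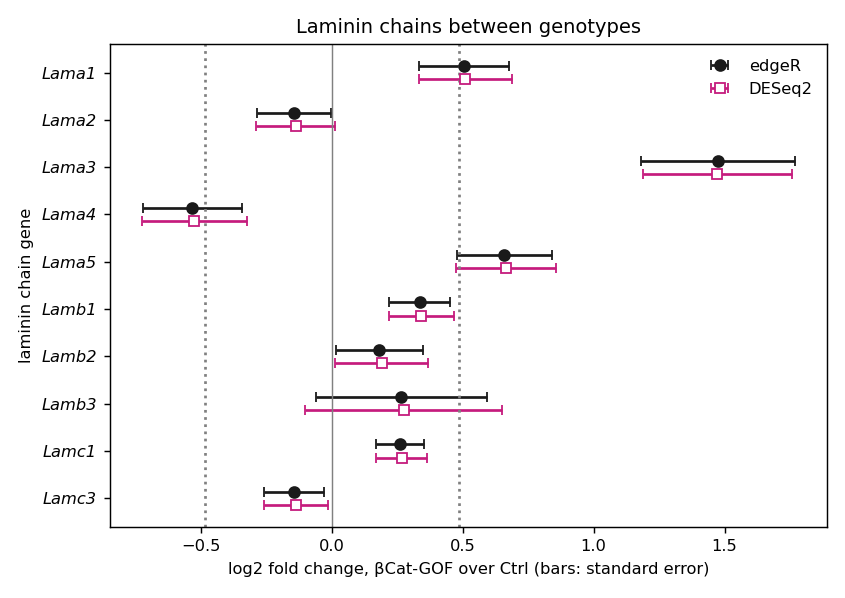
Log2 fold change of βCat-GOF over Ctrl (x axis) for the 9 chains and for *Lamc3*, from edgeR (filled circles) and DESeq2 (open squares), with standard errors as bars. Dotted lines mark a fold of 1.4 in either direction. *Lama3* is farthest from 0, at 1.47 in both fits, and *Lama4* is at -0.53.

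By mouse, βCat-GOF 5 had 7 of the 9 chains above every control, βCat-GOF 1 had 6, and mice 2, 4 and 6 had 5 each. βCat-GOF 3 had only *Lama3* and *Lamb1* above every control, and *Lama2* and *Lama4* below. The median over the 9 chains of the log2 ratio to the control mean was 0.21 to 0.44 in the other 5 βCat-GOF mice and -0.22 in βCat-GOF 3.

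Levels can be compared between genes only per length. In Ctrl, the mean normalized counts per kb of exon were 469 ± 114 for *Lamb2*, 417 ± 77.6 for *Lamb1*, 261 ± 26.3 for *Lamc1* and 202 ± 37.2 for *Lama4* (SD, n = 6 each). The other α chains were lower, with 67.3 ± 10.6 for *Lama2*, 51.8 ± 10.8 for *Lama5*, 35.4 ± 6.17 for *Lama1* and 17.7 ± 5.35 for *Lama3*, and *Lamb3* was at 1.91 ± 0.609. *Lamb2* and *Lamb1* overlapped in range, and by this length every other neighbour in the order kept its place in 6 of 6 Ctrl mice. In βCat-GOF, *Lama5* with 82.1 ± 19.4 stood above *Lama2* with 61.2 ± 11.7 in 6 of 6 mice. *Lama1* with 50.4 ± 12.2 and *Lama3* with 49 ± 23.6 did not differ beyond their spread there. Parts of this order depend on the length used. With the longest transcript in place of all exons, *Lamb1* was above *Lamb2* in 6 of 6 mice of each group. *Lama4*, with 404 ± 74.2 in Ctrl, was then above *Lamc1*, with 283 ± 28.6, in 6 of 6 Ctrl mice, while in βCat-GOF *Lamc1* was above *Lama4* in 4 of 6. *Lama2* was above *Lama5* in 6 of 6 mice of both groups by this length, with 104 ± 19.9 and 82.1 ± 19.4 in βCat-GOF, so the change of places of these 2 chains holds for the union of exons only.

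**Figure D3:**
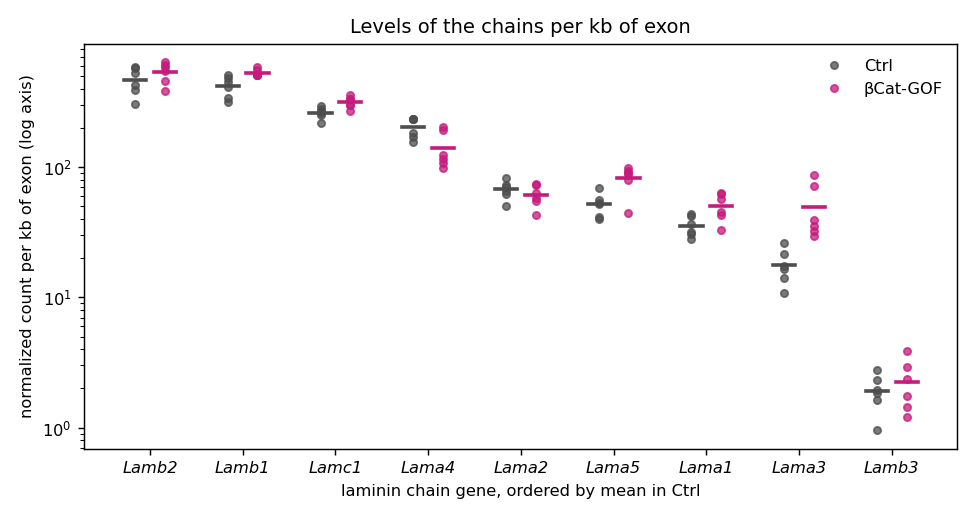
Normalized counts per kb of exon (y axis, log scale) of the 9 chains, ordered by the Ctrl mean. Points are the 6 mice of each group and lines are group means. By this length *Lama5* is below *Lama2* in Ctrl and above it in βCat-GOF, which does not hold with the longest transcripts, and *Lamb3* is the lowest chain in both groups.

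The share of each chain among the α chain transcripts of a mouse is free of library size. The 10 shares and ratios described here were compared by exact permutation tests over all splits of the 12 mice into 6 and 6, two-sided, for which the smallest possible p is 0.00216, and were adjusted together. The 5 shares of a mouse add up to 100%, so they do not vary independently.

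*Lama4* made up 58.0, 56.4, 53.1, 54.3, 52.9 and 48.6% of α chain transcripts in the controls and 28.6, 39.4, 43.2, 33.2, 44.0 and 30.8% in βCat-GOF mice. All βCat-GOF mice were below all controls. The mean fell from 53.9 ± 3.27% to 36.5 ± 6.54% (SD, n = 6 each, exact permutation p = 0.00216, adjusted p = 0.00541).

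*Lama3* had 3.4 to 7.5% of α chain transcripts in Ctrl and 7.62 to 19.9% in βCat-GOF. *Lama5* had 11.5 to 16% in Ctrl and 16.6 to 27.96% in βCat-GOF. *Lama1* had 8.92 to 10.4% in Ctrl and 12.2 to 14.4% in βCat-GOF. For these 3 chains all βCat-GOF mice were above all controls, by means of 7.79, 7.75 and 3.7 percentage points, each with an exact permutation p of 0.00216 and an adjusted p of 0.00541 (n = 6 each). βCat-GOF 3, whose *Lama1* and *Lama5* counts lay in the control range, was outside the control range in its shares of both. The share of *Lama2* was 18 ± 1.59% in Ctrl and 16.2 ± 1.69% in βCat-GOF (n = 6 each, exact permutation p = 0.0714, adjusted p = 0.119).

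These 4 shares kept their direction and passed the test without each mouse in turn, without βCat-GOF 1 and 2, and without 1 library of each pair that shares a stem (adjusted p = 0.0397 for each). They also did so with longest transcript lengths, by which *Lama4* had 64.5% in Ctrl and 49.0% in βCat-GOF.

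**Figure D4:**
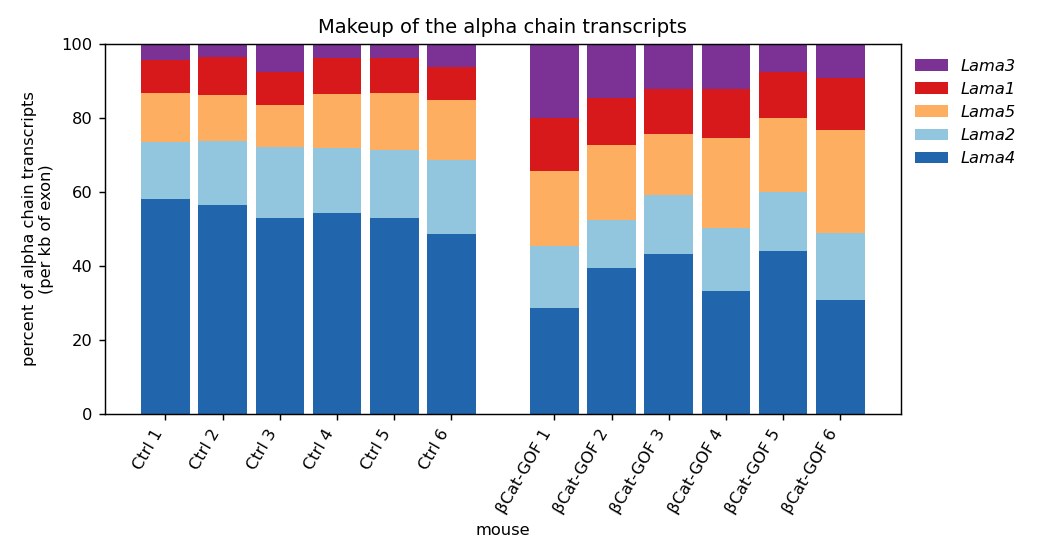
Share of each α chain in the α chain transcripts of 1 mouse, per kb of exon (y axis, percent of the 5 chains, bars stacked to 100), for the 6 Ctrl and 6 βCat-GOF mice (x axis). *Lama4* fills 48.6 to 58.0% of each Ctrl bar and 28.6 to 44.0% of each βCat-GOF bar.

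The shares of the β chains overlapped between the groups, and no difference passed the test. *Lamb1* made up 47.2 ± 3.15% of β chain transcripts in Ctrl and 49.9 ± 4.68% in βCat-GOF (n = 6 each, exact permutation p = 0.268, adjusted p = 0.338). *Lamb2* made up 52.5 ± 3.21% and 49.9 ± 4.65% (n = 6 each, exact permutation p = 0.271, adjusted p = 0.338). *Lamb3* was at 0.22 ± 0.0799% and 0.212 ± 0.0905%.

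The sum of α chains over *Lamc1*, per kb of exon, was 1.43 ± 0.107 in Ctrl and 1.21 ± 0.193 in βCat-GOF. It was below every control in 4 of 6 βCat-GOF mice, and the difference did not pass after adjustment (n = 6 each, exact permutation p = 0.0411, adjusted p = 0.0823). With longest transcript lengths it did pass (2.19 in Ctrl, 1.65 in βCat-GOF, adjusted p = 0.013). The sum of β chains over *Lamc1* was 3.39 ± 0.508 and 3.41 ± 0.402 (n = 6 each, exact permutation p = 0.918).

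Across the 12 mice, with the mean of each genotype taken off, the log2 CPM of 36 pairs of chains had Pearson correlations from -0.14 to 0.94. The highest was that of *Lama1* and *Lamc1* (r = 0.94, Spearman's rho = 0.94), and the lowest that of *Lama3* and *Lamb2*. Among all genes tested, those most like *Lamc1* by this measure were *Glb1l* (r = 0.97), *Six5* (r = 0.96) and *Lama1*. Those most like *Lamb1* were *Fuk* (r = 0.93), *Trp53* and *Stat2* (r = 0.92 each), and those most like *Lama5* were *Kdelc1*, *Entpd2* (r = 0.95 each) and *Zbtb48* (r = 0.94). They were picked as the highest of all genes in 12 libraries, so the values are descriptions and carry no test.

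Of 9 laminin receptor genes, 0 passed every cut-off, and the median log2 fold change was 0.42. Adjusted p alone gave 2 that were higher and 1 that was lower, against 2.16% and 1.52% of all genes tested. *Itga3*, the integrin α3 that binds α3 and α5 laminins, rose from 1092 ± 67.8 to 1465 ± 225 normalized counts (log2 fold change 0.42, SE 0.104, edgeR adjusted p = 0.042). The other 2 were picked after their values were seen. *Bcam*, the Lutheran glycoprotein that binds the α5 chain, rose from 1076 ± 149 to 1483 ± 209 (log2 fold change 0.46, SE 0.117, edgeR adjusted p = 0.0467). *Itga1*, an integrin for collagen IV and laminin, fell from 743 ± 61.0 to 544 ± 94.6 (log2 fold change -0.45, SE 0.117, edgeR adjusted p = 0.0483). Their folds of 1.34, 1.37 and 0.73 stayed inside the limit of 1.4. The values of *Dag1*, which encodes dystroglycan, and *Itgb1*, the common β1 integrin, were 0.03 and 0.04 on the log2 scale, and neither passed the test.

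Of 13 genes that glycosylate dystroglycan so that it can bind laminin, 0 were called in either direction, with a median of -0.07. Of all genes tested 1.48% were called higher and 0.869% lower. The smallest p was that of *B4gat1*, the glucuronyltransferase that primes the chain extended by LARGE, at a log2 fold change of -0.20 (SE 0.0834, edgeR adjusted p = 0.187). Of its exons 85.3% overlap another gene on the same strand, so its count is uncertain.

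Of 26 other BM genes, 2 were called higher and 0 lower, against 1.48% and 0.869% of all genes tested. The median log2 fold change was 0.05. *Fbln1*, the BM glycoprotein fibulin-1, rose from 218 ± 80.9 to 799 ± 159 normalized counts (log2 fold change 1.86, SE 0.215, edgeR adjusted p = 0.000607), with all βCat-GOF mice above all controls. *Ntn4*, the netrin-4 that binds laminin γ1 and loosens laminin networks, rose from 523 ± 123 to 957 ± 256 (log2 fold change 0.87, SE 0.192, edgeR adjusted p = 0.0246), with 5 of 6 above all controls. The nidogens, perlecan, agrin and the collagen IV chains were not called.

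Of 10 genes of proteases that cut laminins or act on BM, 8 were tested and 0 passed every cut-off. Of all genes tested 1.48% were called higher and 0.869% lower. Adjusted p alone gave 1 that was higher and 1 that was lower, against 2.16% and 1.52%. *Bmp1*, a procollagen C-proteinase that also trims laminin chains, rose 1.31-fold from 802 ± 59.98 to 1055 ± 90.3 normalized counts (log2 fold change 0.39, SE 0.0814, edgeR adjusted p = 0.0188). For *Bmp1*, 6 of 6 βCat-GOF mice were above all controls, as in 1.61% of genes tested. Its relative *Tll1*, picked after its values were seen, fell from 62.4 ± 10.6 to 36.8 ± 7.47 (log2 fold change -0.78, SE 0.191, edgeR adjusted p = 0.04), with 6 of 6 below.

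**Figure D5:**
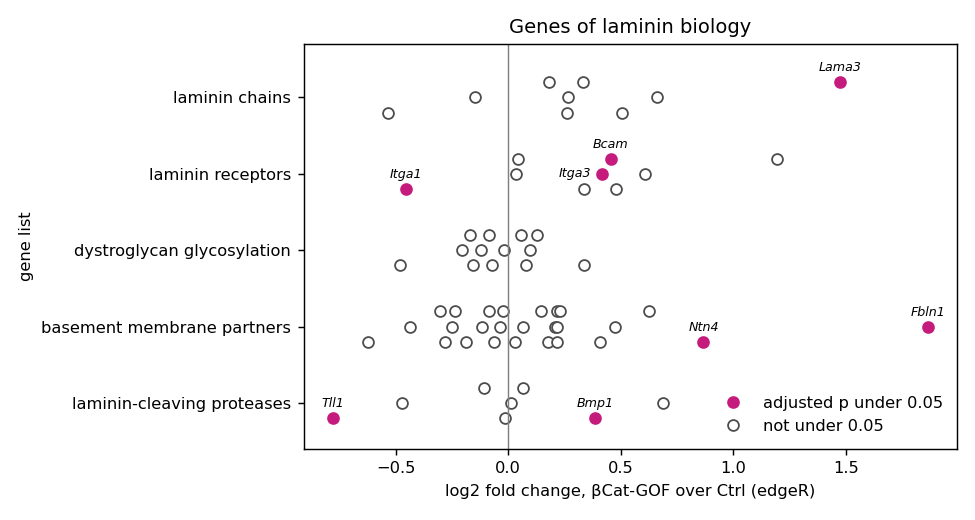
Log2 fold change of βCat-GOF over Ctrl in edgeR (x axis) for the genes tested in 5 lists (y axis, points spread vertically for legibility). Filled points have an adjusted p under 0.05, 8 in all, and are named. The dystroglycan list has 0 filled points.

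Other cell type markers moved with genotype in the same libraries. Of 8 zG markers 4 were called higher, against 1.48% of all genes tested. They were *Agtr1b* (log2 fold change 1.56), *Vsnl1* (1.00), *Agtr1a* (0.89) and *Dab2* (0.75). *Cyp11b2*, whose locus drives Cre, is the aldosterone synthase gene, and per the study only a part of the zG cells express it. It had a log2 fold change of -0.18 and *Hsd3b6* one of 0.16, and neither passed the test (both picked after their values were seen). The zG list summed to 1342 to 2082 CPM in Ctrl and 1632 to 3680 in βCat-GOF. Of 5 zona fasciculata markers only *Akr1b7* was called higher (1.49), against the same 1.48%. Of 6 macrophage markers only *Adgre1* was called lower (-0.78), against 0.869% of all genes tested. At an adjusted p under 0.05 alone 2 of the 6 were lower, against 1.52%. At an unadjusted edgeR p under 0.05 it was 5, against 10.7%. The median log2 fold change of the macrophage list was -0.40, and it summed to 219 to 345 CPM in Ctrl and 187 to 291 in βCat-GOF. Among the markers of capsule and stroma (8), chromaffin cells (6), Schwann cells (6, of which 5 were tested) and adipocytes (5), 0 were called. Of all genes tested 1.48% were called higher and 0.869% lower. The part of cell makeup in the laminin chain levels was not tested.

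RefSeq promoter windows (GRCm38.p6, 300 bases, 250 before to 50 after a start) were searched for 5 of the 9 chains, *Lama2*, *Lama5*, *Lamb1*, *Lamb2* and *Lamb3*. For the chains, windows on the chromosome of *Lama3* were left out, so the promoter of *Lama3* was not searched. The motif searched was that of TCF/LEF factors, the DNA-binding partners of β-catenin, as CTTTG followed by AA, AT, TA or TT, on both strands. Of all 32851 windows 16.9% held at least 1, and 0 of the 6 windows of these chains did, which says only that these letters are not in these windows. The part of the window that lies before the annotated gene start is shown for *Lama5*, on the minus strand (chr2:180225860-180226109), and for *Lamb1*, on the plus strand (chr12:31265043-31265233). These are the α and the β chain with the smallest p among those searched. No capitals are used, since no motif was found.
Lama5: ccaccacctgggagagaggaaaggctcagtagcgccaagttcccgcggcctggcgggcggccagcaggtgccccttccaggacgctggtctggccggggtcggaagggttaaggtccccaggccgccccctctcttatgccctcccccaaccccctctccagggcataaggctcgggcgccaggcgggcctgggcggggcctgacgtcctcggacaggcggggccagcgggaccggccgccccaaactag
Lamb1: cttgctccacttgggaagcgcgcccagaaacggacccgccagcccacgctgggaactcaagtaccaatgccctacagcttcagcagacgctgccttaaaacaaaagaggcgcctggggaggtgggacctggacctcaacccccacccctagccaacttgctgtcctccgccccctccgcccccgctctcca
Of these bases 72.4% are G or C in *Lama5* and 63.9% in *Lamb1*.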

How the data were processed

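Per the labels, libraries were made with a TruSeq mRNA kit. Per the study's methods, the authors trimmed adapters with cutadapt, aligned reads with STAR (mm10) and used featureCounts for the reads that mapped uniquely to each gene. The annotation release and the strand setting are not given in the sources used here. The authors deposited these counts without normalization, and every test was run on them. A second deposited table holds a signal, each library's counts over a single factor of its own, and was used only for gene symbols. No column was left unmapped (0 columns).

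Counts were analysed in R 4.3.3 with edgeR 4.0.16 (filterByExpr, TMM, quasi-likelihood test, genotype only, two-sided), and with DESeq2 1.42.0 without shrinkage as an alternative. For normalized counts, the median-of-ratios factors of DESeq2 were used. Counts were between 110 and 7063 per mouse for the chains other than *Lamb3*, whose 6 to 26 counts leave large counting noise. Positions and exon lengths came from GENCODE M21 on GRCm38, the assembly of mm10, and levels per kb used the union of a gene's exons. Log2 CPM values had a prior count of 2. Shares were tested with exact permutation tests in Python 3.11.15, and figures were drawn with matplotlib 3.10.9. The edgeR and DESeq2 steps were tested on simulated data with 200 changed genes, at an adjusted p under 0.05. There edgeR recovered 170 of them with 7 false calls, and DESeq2 recovered 180 with 33 false calls.

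The chains and the gene lists were chosen with earlier results of these data known. Named are all 9 chains, *Lamc3*, at most 4 called genes of each other list by size of change or else that with the smallest p, and the 3 genes most like each of *Lamb1*, *Lama5* and *Lamc1*. Nothing says that mice came from separate litters or days, and the labels do not say whether libraries sharing a stem are separate mice. The p values therefore measure the spread between these libraries. Alternatives were other size factors, filters and cut-offs, 1 surrogate variable (sva 3.50.0), other lengths and leaving out mice. Protein and immunostaining data were not used here. One further gene is not reported here.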

Additional observations from a re-analysis of the deposited data

Results flagged for a closer look

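In 40 groups of 6 mice, 10 laminin genes and 10 shares and ratios in 2 genotypes, the highest and lowest mouse were checked against the others, where chance alone marks about 1 group in 20. One value stood apart. *Lama5* in βCat-GOF 3 was at 507 normalized counts, and the next lowest βCat-GOF mouse was at 906, a gap of 0.65 of the group's range, which is above Dixon's 95% critical value for 6 mice. The *Lama5* share of α chain transcripts in that mouse, 16.6%, did not stand apart by this rule.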

How the results depend on the processing

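*Lama3* was called in every count of calls except the test against a fold of 1.4, which called 0 chains. DESeq2 called 2 chains higher (*Lama3*, *Lama5*), as did 1 surrogate variable (*Lama1*, *Lama3*), and leaving out 1 mouse gave 1 to 3. No chain was called lower by edgeR, or by DESeq2 with all mice; with 1 mouse left out DESeq2 called *Lama4* lower in 2 of 12 fits. The share of *Lama2* differed by 0.15 percentage points with longest transcript lengths, opposite to the main value of -1.89, and by -2.4 to -1.26 without 1 mouse, where it passed the test only without Ctrl 1 (-2.4, adjusted p = 0.0303). The *Lamb3* share (-0.0355 to 0.0128 points) and the β chain sum over *Lamc1* (-0.134 to 0.17) changed sign with the mouse left out. The α chain sum over *Lamc1* passed with longest transcript lengths (-0.541), without βCat-GOF 1 and 2 (-0.289, an alternative chosen after seeing the data) and without βCat-GOF 2, with a range of -0.273 to -0.176 without 1 mouse. The cause of these changes was not tested.

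Receptor genes called higher were 1 in DESeq2 (*Itga6*), 2 by adjusted p alone and 0 to 1 without 1 mouse. Those called lower were 1 by adjusted p alone and 0 to 1 without 1 mouse. Other BM genes called higher were 1 to 3 without 1 mouse, 1 without Ctrl 5 or Ctrl 6, where *Ntn4* was lost. Protease genes called higher were 1 in DESeq2 (*Adamts1*), 1 by adjusted p alone and 0 to 1 without 1 mouse, and 1 was lower by adjusted p alone. DESeq2's size factors, both filters, leaving out the 3 mice with a suffix in the label and leaving out the mouse with another number changed no call among the chains. No paired analysis was possible because the labels give no replicate numbers shared between the groups. Depth limits *Lamb3*, where a change of a few counts would not be detectable.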
